A study of Mus musculus with 22 samples.

Results

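Lungs taken whole from normal Swiss Webster mice on postnatal day 1 (P1) were compared with those of postnatal day 4 (P4), the days over which septation of the mouse lung begins. Each age was 1 RNA pool made from at least 3 lungs, hybridised once to each of the 2 chips, here called A and B, of an Affymetrix mouse set. The comparison therefore rests on 4 of the 22 arrays, which cover 11 ages from embryonic day 12 (E12) to the adult. No genotype, transgene or treatment is named for any age. With 1 pool per age no difference has a replicate check, and neither an error nor a p-value can be given. A gene here is a probe set with 1 gene symbol, taken as the probe set with the highest mean over the 11 arrays, and its value is the linear signal intensity on its own chip. A ratio is the P4 signal over the P1 signal, after low signals were raised to a floor, the 25th percentile over the 11 arrays of a chip (72.3 for chip A, 47.3 for chip B). Genes were counted where the higher of both signals exceeded the chip median (250.3 on chip A, 176.7 on chip B), which left 3733 of 6117 named genes. Of these, 175 were at least 2-fold apart and are described here.

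At birth the mouse lung consists of wide saccules with thick walls. In septation, ridges grow out of these walls and divide the saccules into alveoli. The ridges hold elastin-producing myofibroblasts at their tips, a double capillary layer and an epithelial cover, and their growth needs cell division in mesenchyme, endothelium and epithelium. Elastin is laid down on microfibrils of fibrillins, with help from latent TGF-beta binding proteins, and glucocorticoids are known to hold septation back.

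The lung origin of the pools was checked with genes that define lung cells. Signals at P1 and P4 were 9406 and 9039 for Ager of type I cells, 2559 and 2195 for Sftpc and 5636 and 3736 for Sftpd of type II cells, 6804 and 3186 for Scgb1a1 of club cells, and 1192 and 1157 for Pecam1 of endothelium. Over the probe sets the P1 and P4 arrays correlated at r = 0.972 on chip A and 0.962 on chip B, a description of arrays that share probes and scaling. The same rule found 329 of 3828 genes (8.59%) at least 2-fold apart from E18 to P1 and 111 of 3722 (2.98%) from P4 to P7. Of 38 control probe sets counted, 4 were at least 2-fold apart, beside 4.69% of the genes counted. All 4 were lower at P4. Their log2 ratios were -1.14 on chip A and -1.08 on chip B for PyruCarb 3′. On chip B they were -2.16 for PyruCarb MB and -1.44 for actin 3′. The 3′ over 5′ signal of the Gapdh control was 0.578 at P1 and 0.542 at P4 on chip A, and 0.776 and 0.679 on chip B. That of actin was 0.314 and 0.338 on chip A, and 0.421 and 0.157 on chip B, so this ratio differed most in actin on chip B. There the actin 3′ signal was 5127 at P1 and 1895 at P4, and the 5′ signal 12166 and 12075. The part of RNA quality in the results was not tested.

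At least 2-fold higher at P4 were 80 genes (2.14% of those counted), and at least 2-fold lower were 95 (2.54%). The lower genes reached further: 39 were at least 3-fold and 17 at least 4-fold lower, against 16 and 5 among the higher genes. The P4 signal lay under the floor in 16 lower genes, and the P1 signal in 1 higher gene, Melk, so that their folds are bounds, written as "at least". The higher genes made up 45.7% of the 175 as deposited. With every array scaled to the same median the split was 63 higher and 116 lower, 35.2% higher. The median of all genes counted stayed near 0 either way (0.01 and -0.05 on the log2 scale). Gene lists are given below with the genes measured and, of these, the genes counted, since only counted genes could reach the limit; a list's median is over its measured genes. On chip A the genes split into 40 higher and 53 lower, and on chip B into 40 and 42.

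**Figure D1:**
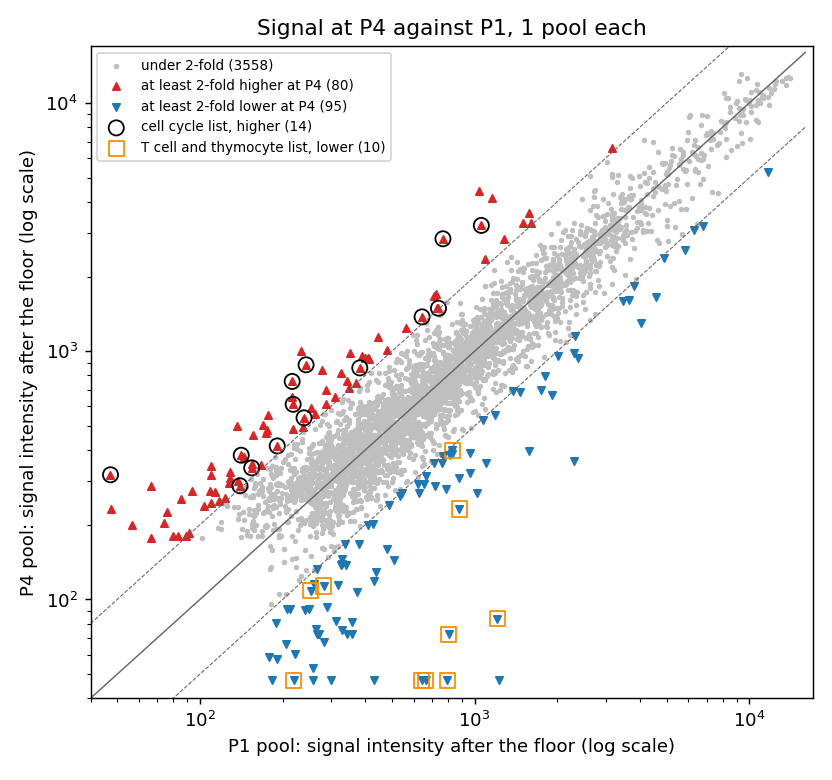
Signal intensity of the 3733 counted genes in the P1 pool (horizontal axis, log scale) and the P4 pool (vertical axis, log scale), after the floor; each point is 1 gene, the solid line marks equal signals and the dashed lines 2-fold. Of the 80 higher genes (red), 14 belong to the cell cycle list (circles), and of the 95 lower genes (blue), 10 to the T cell and thymocyte list (squares), 5 of which were more than 10-fold lower.

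Genes of the cell cycle and of DNA replication were the list with the most members among the higher genes. Of 80 listed, 61 were measured and 48 counted; 14 were at least 2-fold higher and 0 lower. Of the 61, 59 had a higher signal at P4 (96.7%, against 44.3% of all 6117 genes), with a median log2 ratio of 0.67 against 0.00 for all genes. The 6117 include 1005 genes equal after the floor, against 0 of the 61. These lower the percentages above or below equal signal given for all 6117 genes, here and for the lists below. The summed signal of the 61 genes was 83657 at E16, 35958 at E18, 34560 at P1, 53805 at P4, 45888 at P7 and 32327 at P10. The P4 sum thus lay above those of E18 and P1 and below that of E16. In bulk lung, more cycling cells and more RNA per cell cannot be told apart, here as in every group below.

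Mki67, the nuclear antigen of cycling cells, had a signal of 767 at P1, 2841 at P4 and 2368 at P7, a 3.7-fold difference between P1 and P4. It had stood at 5890 at E16 and 1405 at E18. Top2a, the topoisomerase that untangles replicated DNA, went from 244 to 882 and was 696 at P7. Its probe set on the other chip gave 179, 609 and 352, so the difference was repeated on chip A. Cdk1, the kinase that starts mitosis, went from 1059 to 3216 with 2478 at P7.

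The largest ratio of all belonged to Melk, a kinase of dividing cells, at 30.1 and 318, at least 6.73-fold, with 97.2 at P7. Anln, an actin-binding protein of the cleavage furrow, went from 217 to 756. Tk1, the thymidine kinase of S phase, went from 219 to 612. The other list members were Lig1, the ligase of replication, Kif2c, a kinesin of spindle attachment, the mitotic cyclin Ccnb2, the condensin subunit Smc2, the kinase partner Cks2, the S phase cyclin Ccna2, the phosphatase Cdc25c and the G1 cyclin Ccnd2, with folds from 2.02 (Ccnd2) to 2.7 (Lig1). Outside the list, Prc1, which bundles microtubules of the midzone, went from 234 to 1002, a 4.28-fold difference.

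The 14 genes followed a common course, shown in the plot of cell cycle genes by age. All 14 were lower at E18 than at E16, 10 of them at least 2-fold (5.81% of all genes counted were). Their highest postnatal signal lay at P4 in 12, as it did in 37 of all 80 higher genes. At P7 all 14 lay above P1 (53.5% of all genes counted did), 8 of them at least 2-fold (1.98%), and 12 lay below P4. At P4, 13 lay above E18, 7 of them at least 2-fold (4.93% of all genes counted were), and 13 lay below E16. Counts given here without a share over all genes counted describe the 14 alone. The 14 were chosen by a P4 signal above P1, which favours every count here that uses P1 or P4, the P4 peak included. The exceptions were Cdc25c, which was 352 at E18 and 287 at P4, and Ccnd2, which was 556 at E16 and 1491 at P4.

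**Figure D2:**
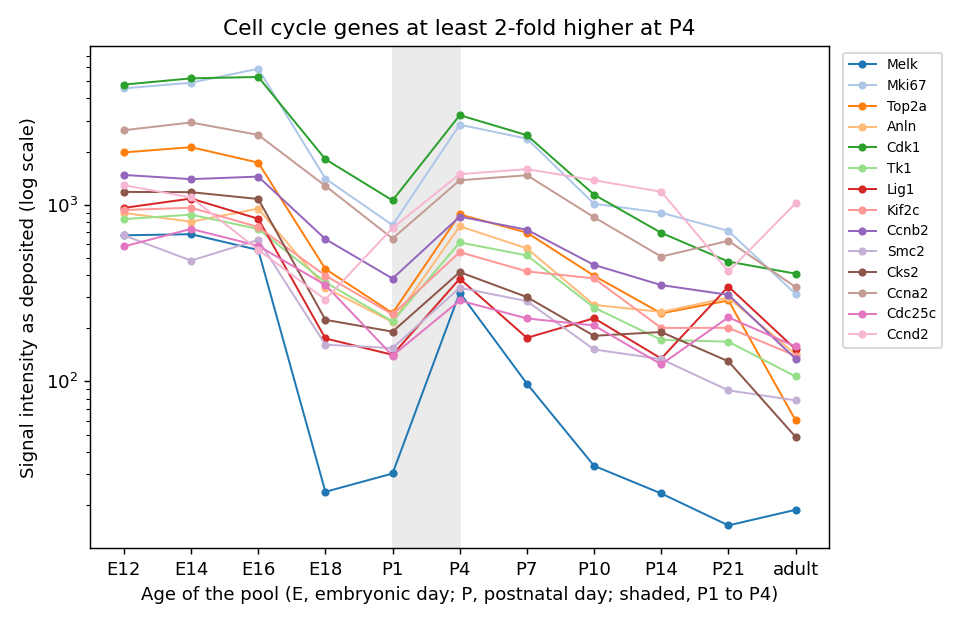
Signal intensity (log scale) at the 11 ages, 1 pool each, of the 14 cell cycle genes at least 2-fold higher at P4 than at P1; each line is 1 gene and the shading marks P1 to P4. Most lines drop from E16 to E18, reach a second, lower peak at P4 and decline after P7; Melk shows the widest range, from 15.3 at P21 to 682 at E14.

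Promoters of 4 of these genes are shown because the genes moved together and their promoters hold the letters of known cell cycle elements. The stretches are the 250 bases before the start of each gene, from RefSeq on GRCm38.p6: Mki67 at chr7:135716380-135716629, Top2a at chr11:99024190-99024439, Cdk1 at chr10:69352913-69353162 and Ccnb2 at chr9:70421555-70421804, each on the minus strand and printed 5′ to 3′. Capitals mark CCAAT, the letters bound by NF-Y, and TTTGAA, the letters of the cell cycle homology region, on either strand (ATTGG and TTCAAA when read on the printed strand).
Mki67: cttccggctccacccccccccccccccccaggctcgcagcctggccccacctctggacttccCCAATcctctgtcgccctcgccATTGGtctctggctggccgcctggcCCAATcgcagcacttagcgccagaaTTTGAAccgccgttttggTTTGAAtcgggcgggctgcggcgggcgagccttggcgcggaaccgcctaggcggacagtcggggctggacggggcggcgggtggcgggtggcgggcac
Top2a: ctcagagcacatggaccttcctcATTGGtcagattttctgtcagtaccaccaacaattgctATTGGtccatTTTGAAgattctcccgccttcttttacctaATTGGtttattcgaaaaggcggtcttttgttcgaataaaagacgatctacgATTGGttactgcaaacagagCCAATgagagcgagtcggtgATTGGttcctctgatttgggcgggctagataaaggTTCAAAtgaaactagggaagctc
Cdk1: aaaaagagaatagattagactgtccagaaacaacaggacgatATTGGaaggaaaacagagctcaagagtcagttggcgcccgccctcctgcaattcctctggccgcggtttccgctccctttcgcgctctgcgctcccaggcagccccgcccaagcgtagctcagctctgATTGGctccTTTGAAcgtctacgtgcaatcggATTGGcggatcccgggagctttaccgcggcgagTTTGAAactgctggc
Ccnb2: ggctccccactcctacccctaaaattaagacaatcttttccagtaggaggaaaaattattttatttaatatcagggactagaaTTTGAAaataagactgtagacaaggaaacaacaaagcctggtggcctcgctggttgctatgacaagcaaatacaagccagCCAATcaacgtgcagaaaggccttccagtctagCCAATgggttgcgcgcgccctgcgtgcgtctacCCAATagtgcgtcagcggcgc

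A promoter was on hand for 11 of the 14 genes. TTTGAA occurred in 6 of the 11 and in 16.0% of all 32851 promoters of the same length, and CCAAT in 6 and in 33.8%. Both occurred in 5 of the 11, in the 4 shown and in Smc2, and in 5.55% of all promoters. The matches in the 4 shown do not overlap each other, and a match describes the letters and does not show that a factor bound there.

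Several genes of matrix and growth factor lists were higher at P4, and so was Htra1, which is on no list. Htra1, a secreted protease that cuts matrix proteins, had signals of 1036 at P1, 4438 at P4, 4728 at P7 and 4695 at P10, a 4.28-fold difference from P1 to P4, and 1138 at E18. Of the elastic fibre list, 2 of 10 measured genes (9 counted) were at least 2-fold higher and 0 lower, with a median log2 ratio of 0.18. Ltbp2, a latent TGF-beta binding protein of microfibrils, went from 727 to 1698, and on to 2082 at P7 and 3402 at P10, its highest signal of any age. Fbn2, the fetal fibrillin, went from 238 to 494 and was 381 at P7, below its 1765 at E16.

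Elastin itself did not join them. Eln, named after its values were seen, had 10552 at P1, 9826 at P4 and 10154 at P7 on chip A. On chip B it had 4528, 2541 and 2088 at these ages, a log2 ratio of -0.83 for P4 over P1. That probe set had 2544 at E18, 6693 at P10, 6820 at P14 and 1534 at P21, so the later course differed between the chips. Both probe sets were thus lower at P4, by less than 2-fold.

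Matricellular proteins and proteoglycans had 2 of 20 measured genes (17 counted) higher and 0 lower, with a median of 0.21. Vcan, a large proteoglycan of provisional matrix, had 216 at P1, 657 at P4 and 511 at P7. Another counted probe set gave a log2 ratio of 0.95 beside 1.60. Tnc, the adhesion-modulating tenascin-C, had 1612, 3297 and 3465, against 594 at E18, and was at 868 at P14. The fibrillar collagen list had 0 of 14 genes (12 counted) at least 2-fold apart (median 0.17); its largest ratios were those of P4ha1, a proline hydroxylase, at -0.60, and Bmp1, the procollagen C-proteinase, at 0.57. The basement membrane list also had 0 of 18 (16 counted), yet 16 of its genes had a higher signal at P4 (88.9%, against 44.3% of all genes), with a median of 0.22. Between P7 and E18 the median of the basement membrane list was -0.15, against 0.00 for all genes. Hspg2, the perlecan core protein, had 1748 at E18, 1355 at P1 and 2409 at P4. Lama3, a laminin chain of epithelium, had 2278, 899 and 1414, so its P4 signal lay below E18. Matrix proteases and their inhibitors had 0 of 13 (11 counted, median 0.03), led by Adam17 at -0.96 and Plau at 0.80.

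Among septation growth factors and receptors, 2 of 29 measured genes (21 counted) were at least 2-fold higher and 0 lower. Of the 29, 18 lay above and 8 below equal signal (44.3% and 39.3% of all genes), with a median of 0.16. Wnt5a, a ligand of non-canonical Wnt signalling made by lung mesenchyme, had 110 at P1, 244 at P4, 162 at P7 and 244 at P10, and 18.7 at P21. Tgfb2, a TGF-beta ligand, had 370, 748 and 1411 at P7, its highest signal. Pdgfra, the receptor of the myofibroblast precursor and named after its values were seen, had 985 at E18. It then had 380, 691 and 824 at P1, P4 and P7, a ratio of 1.82 that stays under the limit. P1 was thus its lowest signal of any age, and P4 and P7 lay below E18. Smooth muscle and myofibroblast genes had 1 of 13 higher (11 counted, median 0.25): Myh11, the smooth muscle myosin, had 218, 488 and 315. Acta2, also named after its values were seen, had 8206, 10511 and 13963.

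Mdk, a heparin-binding growth factor of embryonic tissue, had 1162 at P1, 4154 at P4 and 4131 at P7, against 11333 at E12. On chip A it had 1053, 3468 and 2573, so both chips gave a difference over 3-fold. The mesenchymal transcription factor Foxf2 (446, 1144 and 1427 at P1, P4 and P7) and Nfib, a transcription factor of lung maturation (1277, 2824 and 2858), were named after their values were seen. Igfbp2, an IGF-binding protein also used as a marker of type I cells, had 398, 938 and 1250. At P7 the 7 genes from the elastic fibre, matricellular, smooth muscle and growth factor lists all stayed above P1 and above E18. Of all genes counted 53.5% lay above P1 at P7 and 51.1% above E18. In each case 4 of the 7 were at least 2-fold above (1.98% and 4.61% of all genes counted). The choice of the 7 by a P4 signal above P1 favours the counts against P1.

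**Figure D3:**
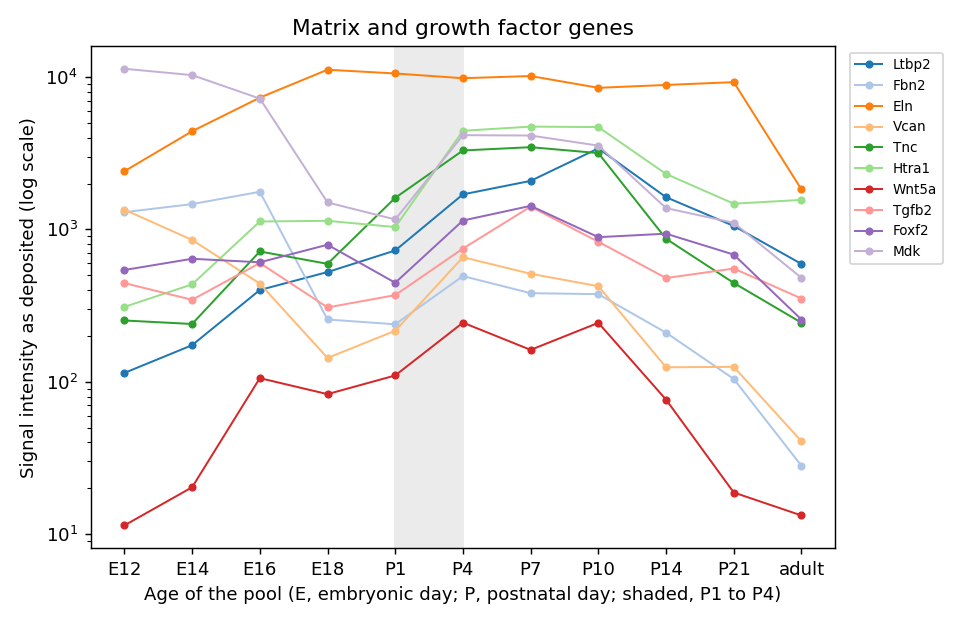
Signal intensity (log scale) at the 11 ages, 1 pool each, of 9 matrix, growth factor and mesenchymal genes at least 2-fold higher at P4 than at P1, with Eln for comparison; each line is 1 gene on its own probe set and the shading marks P1 to P4. Htra1 and Tnc hold a plateau from P4 to P10, and Ltbp2 reaches 3402 at P10. Eln, on its chip A probe set, stays between 8497 and 11171 from E18 to P21. Its chip B probe set, not drawn, had 2088 at P7 and 6693 at P10.

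Other high ratios belonged to genes outside these groups. Cd79a, a signalling chain of the B cell receptor, had 66.2 at P1, 287 at P4 and 332 at P7; it was the single gene at least 2-fold apart of 19 measured on the B cell list (9 counted, median 0.05). Spink1, a trypsin inhibitor, had 47.5 at P1, 233 at P4 and 43.9 at P7, and 319 at E18, so that P1 and P7 were its lowest signals of the 11 ages. Stx2, a membrane fusion protein, had 137, 501 and 124, and a further high signal of 497 at P14. Evx2, a homeobox gene, was 199 at P4 and between 56 and 76.6 at every other age. Insig2, which restrains sterol synthesis, had 109, 345 and 162, and D17H6S56E-5 had 177, 556 and 423.

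Xist, the transcript of the inactive X chromosome, was named after its values were seen. It ranked 16th among the higher genes with 278 at P1, 839 at P4 and 664 at P7, and ranged from 25.6 at E16 to 1198 in the adult. Its level follows the share of females in a pool, which the labels used here do not state, and the part of the pools' sex in other genes was not tested.

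Of 39 enzymes of xenobiotic and antioxidant metabolism, 3 were higher and 3 lower (33 counted, median 0.07). Hpgd, which breaks down prostaglandins, had 167 at E18, 715 at P1, 1675 at P4 and 3038 at P7, then 2802 at P10 and 5080 in the adult. Sod2, the mitochondrial superoxide dismutase, had 1211 at E18, 409 at P1, 936 at P4 and 1114 at P7, so P1 was the low point. Adh1, an alcohol and retinol dehydrogenase, had 7645, 3171, 6589 and 7304 at those 4 ages, the same form. It later fell below its P1 signal, to 1462 at P14 and 1183 in the adult. The lower members were Inmt, Gpx3 and Mt1, described below.

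Among the lower genes the list with the most members was that of T cells and thymocytes. Of 41 listed, 29 were measured and 12 counted. Of the 12, 10 were at least 2-fold lower and 1, Cd4, higher. Cd3d, Cd3g, Cd8a, Rag1 and Zap70, for example, passed the filter through P1 alone, which favours lower genes among those counted. Over all 29 measured genes the median log2 ratio was -0.64. At P1 13 of the 29, of which only 12 were counted, had their highest signal of all ages (6.91% of all genes counted did). Their summed signal was 8504 at P1, 2742 at P4 and 2731 at P7, and lay between 2731 and 4533 at the 10 ages other than P1. The P1 pool thus stood apart from every other pool, E18 included (3023).

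Cd3d, a chain of the T cell receptor complex, had 795 at P1, 37.1 at P4 and 74.2 at P7, at least 16.8-fold lower at P4, and 33.2 at E18. Cd3g of the same complex had 664, 32.7 and 32.2 (at least 14.0-fold), and Cd8a, the co-receptor of cytotoxic T cells and immature thymocytes, 642, 37.4 and 38.5 (at least 13.6-fold). Rag1, a subunit of the recombinase that assembles receptor genes in immature lymphocytes, had 805, 7.13 and 8.34, at least 11.1-fold, and at most 16.3 at any age but P1. Thy1, a surface protein of thymocytes and of some fibroblasts and neurons, had 1211, 83.6 and 85.6, 14.5-fold, and reached 570 in the adult. Zap70, the receptor's kinase, had 220, 31.4 and 16.7, at least 4.65-fold, and its highest signal was 621 at E16.

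The other 4 members were Satb1, a chromatin organiser of thymocytes (880 and 232), Cd27, Lef1 and Cd3e. Cd3e, a further chain of the same complex, had 831 at P1, 399 at P4 and 541 at E18, so it stood less apart than Cd3d and Cd3g. Cd4 went the other way, from 85.7 at P1 to 254 at P4, and was 364 at E18. Among the defining thymocyte markers, Rag2 lay under the floor at both ages (11.3 and 5.15) and Dntt had 83.9 at P1 and 102 at P4 on the probe set used, and 101 and 66.6 on another.

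The smallest ratio of all belonged to H2-T3, the thymus leukaemia antigen of mouse thymocytes and gut epithelium. It had 1229 at P1, 27.8 at P4 and 15.8 at P7, at least 26.0-fold lower, and at most 27.6 at the other ages outside P1 and P4. Its probe set on chip A had 285, 13.7 and 8.06. Ccl25, a chemokine made by thymic epithelium and small intestine and named after its values were seen, had 270, 5.25 and 5.89, with at most 9.44 at any age but P1. A second Ccl25 probe set had 201, 4.6 and 5.37. Sla, an adaptor of T cell receptor signalling, had 258, 42.7 and 69.2, but its highest signal of any age was 775 at P21.

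**Figure D4:**
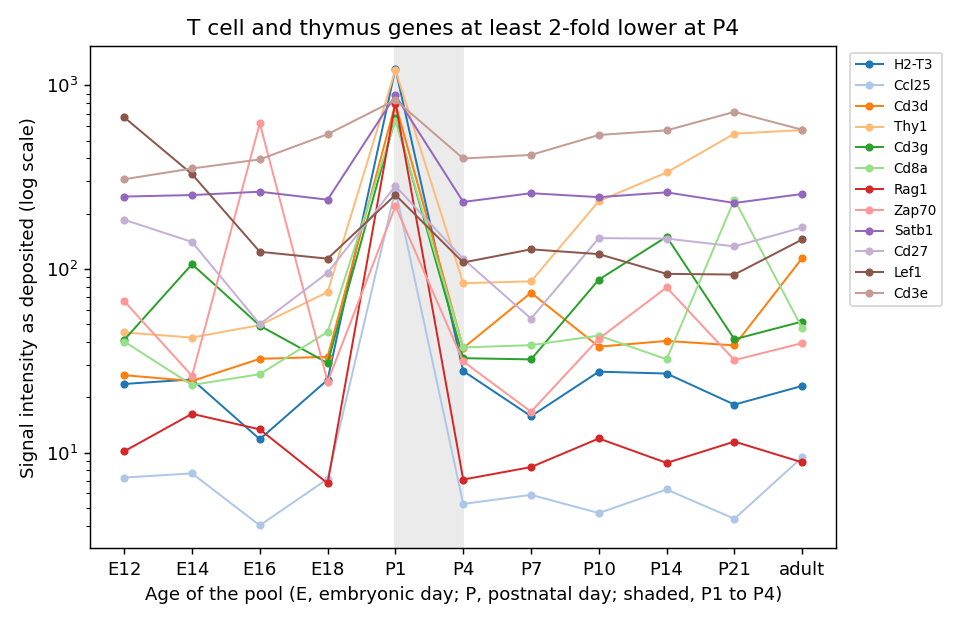
Signal intensity (log scale) at the 11 ages, 1 pool each, of the 10 T cell and thymocyte genes at least 2-fold lower at P4 than at P1, with H2-T3 and Ccl25; each line is 1 gene and the shading marks P1 to P4. Nearly all lines peak at P1, which the choice of genes by their P1 signal favours. There 8 of the 10 list genes had their highest signal (6.91% of all genes counted did). The exceptions are Zap70, highest at E16, and Lef1, highest at E12.

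Most of these genes came down from a level that the P1 pool had and its neighbours did not. At P1 9 of the 10 were at least 2-fold higher than at E18 (5.09% of all genes counted were). The choice of the 10 by their P1 signal favours that count. Between P4 and E18 0 of the 10 differed 2-fold (4.93% of all genes were as far above E18 and 2.65% as far below). The labels used here call the tissue whole lung and do not say what was trimmed from it. Whether thymus tissue or thymocytes were in the P1 pool was not tested. Without the members of the T cell list and of the heart and skeletal muscle list, 79 genes were at least 2-fold higher and 82 lower.

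The heart and skeletal muscle list had 3 of 31 measured genes (17 counted) lower and 0 higher. Of the 31, 21 lay below and 9 above equal signal (39.3% and 44.3% of all genes), with a median of -0.20. Myl2, the ventricular myosin light chain, had 301 at P1, 25.8 at P4 and 121 at P7, at least 6.37-fold lower. Acta1, skeletal muscle actin, had 786, 278 and 431, and Actc1, cardiac actin, had 11666, 5273 and 4864. The summed signal of the list was 27908 at E18, 38132 at P1, 25800 at P4 and 24423 at P7, and it was higher than at P1 only at P21 (49626). As background, pulmonary veins of the mouse carry cardiac muscle. The part of attached heart or muscle in the result was not tested.

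The type II cell and surfactant list had 4 of 12 measured genes (12 counted) lower and 0 higher, with a median of -0.58. Pon1, an esterase secreted on lipoproteins, had 422 at E18, 343 at P1, 23.4 at P4 and 60.8 at P7, at least 4.75-fold lower. Nkx2-1, the transcription factor that specifies lung epithelium, had 82.4 at E18, 283 at P1, 67.6 at P4 and 58.2 at P7, so P1 was above both neighbours. S100g, a calcium-binding protein, had 1959, 4026, 1294 and 1942 at those ages. Cebpa, a transcription factor of epithelial maturation, had 54.2, 411, 200 and 71.8. Sftpc and Sftpd, given above, were lower at P4 by less than 2-fold.

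Among the lower genes were keratins, Krt19 from the lists and others named after their values were seen. Krt19 had 2383 at E18, 2311 at P1, 987 at P4 and 1021 at P7, so here E18 and P1 were alike. Krt18 had 1576 and 395, and Krt8, its partner in simple epithelium, 2014 and 957. A chip A probe set of Krt8 had 1355 and 928, under 2-fold. The type I cell list, which holds Krt19 and Igfbp2, had 1 of 8 higher and 1 lower (7 counted, median -0.10). Of 8 club cell genes 1 was lower (6 counted, median 0.00): Scgb1a1 had 6804 at P1, 3186 at P4 and 7529 at P7 on chip A, but 2380, 3105 and 2714 on chip B, the opposite direction. Atp1b1, the beta subunit of the sodium pump that drives fluid absorption, had 6300, 3073 and 4534, and was the single gene at least 2-fold apart of 12 ion and water transport genes (8 counted, median 0.12).

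Glucocorticoid response genes were lower almost throughout. Of 16 measured (14 counted), 15 had a lower signal at P4 (93.8%, against 39.3% of all genes), with a median of -0.39; 3 were at least 2-fold lower and 0 higher. Errfi1, a feedback inhibitor of the EGF receptor, had 1257 at E18, 1748 at P1, 697 at P4, 791 at P7 and 4802 at P14. Mt1, a metallothionein induced by metals and steroids, had 1799 at P1, 794 at P4, 1308 at P7, 896 at P10 and 645 at P14. Ddit4, an inhibitor of mTOR signalling, had 1381, 690 and 821 and then 2543 at P14. From E18 to P14, the low signals of Errfi1 and Ddit4 thus lay at P4 to P10, while the lowest signal of Mt1 lay at P14. Between P7 and E18, pools that did not enter the P4 over P1 ratio, the list's median was -0.70 against 0.00 for all genes.

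Glycolysis and hypoxia genes had 0 of 20 (15 counted) at least 2-fold apart, led by Ldhb (1625 and 1045) and Eno3 (891 and 580). Of the 20, 13 were lower and 5 higher (39.3% and 44.3% of all genes), with a median of -0.17. Gpx3, the secreted glutathione peroxidase, had 6332 at E18, 4592 at P1, 1656 at P4, 1293 at P7 and 4932 at P14. Its chip A probe set had 4206, 2846, 964, 803 and 2910, the same trough. Inmt, a methyltransferase of lung stroma, had 1247, 2299, 362, 686 and 6046, a 6.36-fold difference between P1 and P4. Fabp4, a fatty acid carrier of capillary endothelium and fat, had 265 at P1, 75.9 at P4 and 58.8 at P7, and was the single gene at least 2-fold apart of 32 on the lipid list (24 counted, median 0.00).

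Of 21 imprinted and IGF genes, 1 was higher, Igfbp2, and 2 were lower (18 counted, median 0.01). Dlk1, an imprinted inhibitor of adipocyte formation, had 9231 at E18, 5855 at P1, 2563 at P4, 584 at P7, 207 at P10 and 36.0 in the adult, a decline over every one of these steps. Igfbp3, the main IGF carrier of plasma, had 164, 329, 75.2, 65.2 and 77.1 from E18 to P10 and 624 at P21. Alb, the single lower gene of 18 liver plasma proteins (8 counted, median -0.01), had 630 at P1, 269 at P4 and 211 at P7.

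Immune and blood lists other than T cells had few genes past 2-fold. Of 29 macrophage genes, 2 were lower (21 counted, median 0.00). Ctsl, a lysosomal protease, had 3645 at P1, 1613 at P4 and 2992 at P7, and Lgals3, galectin-3, had 3470, 1593 and 1858. A chip A probe set of Lgals3 went the other way, from 92.5 to 273. H2-Ab1, a class II chain that presents antigen, was the 1 lower gene of 9 on its list (6 counted, median 0.09), with 275 at E18, 1102 at P1, 355 at P4 and 961 at P7. Neutrophil genes had 0 of 14 (7 counted, median 0.00), and class I and interferon genes 0 of 31 (14 counted, median -0.12), led by Isg15 with 653 and 351. Of 13 mast cell and basophil genes (8 counted), Mcpt1, a mast cell protease, was lower (192 and 57.7) and Hdc, the histamine-forming enzyme, higher (154 and 351). Of 19 erythroid genes (11 counted) 1 was lower, Hba-a1, an alpha globin. Its probe set read 430 at P1 but under 0.1 at E16 and from P4 to P14, while another read 238 at P1 and 406 at P4, so its direction is uncertain.

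Endothelial genes had 1 of 24 (18 counted) lower. Of the 24, 15 lay above and 7 below equal signal (44.3% and 39.3% of all genes), with a median of 0.12. Nos3, the endothelial nitric oxide synthase, had 111 at E18, 314 at P1, 81.6 at P4 and 96.1 at P7. Retinoid pathway genes had 0 of 10 (6 counted, median -0.04), although Crabp1, a retinoic acid carrier, had 257 at P1, 417 at P4 and 1409 at P7. Immediate early genes had 0 of 28 (22 counted, median -0.14), led by Socs3 (644 and 346), and heat shock genes 0 of 18 (13 counted, median -0.04). Oxidative phosphorylation had 0 of 38 (34 counted, median -0.03) and ribosomal proteins 1 of 45, Rpl41, lower (38 counted, median -0.02). Nerve and neuroendocrine genes had 0 of 19 (4 counted, median 0.10), clock genes 0 of 10 (6 counted, median 0.10), cartilage genes 0 of 9 (3 counted, median 0.12) and ciliated cell genes 0 of 3 (3 counted, median 0.02). Squamous epithelium had 1 of 17, Krt19, lower (8 counted, median 0.00).

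Further lower genes with large ratios were Rbl2, a pocket protein that restrains the cell cycle (357 at P1, 47.8 at P4 and 310 at P7, at least 4.94-fold), Pctp, a phosphatidylcholine carrier (258, 52.8 and 176), and Fcho1, an endocytosis protein (357, 81.1 and 92.8). Rbl2 was back near its P1 level at P7, and Fcho1 was not. In all, 28 of the 80 higher and 36 of the 95 lower genes were on a list.

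The limit of 2-fold has no sharp edge in these data. Just inside it lay Ccnd2 (739 and 1491) and Tfap2c (89.1 and 180) among the higher genes, and Ddit4 (1381 and 690) and Tuba4a (714 and 355) among the lower. Just outside lay Fancc (154 and 307), Flt3 (a log2 ratio of 1.00 after rounding), Dpep1 (623 and 313) and Arih2 (540 and 270).

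Whether P7 kept the direction was asked next. Of the 80 higher genes 73 were above P1 at P7, and of the 95 lower genes 88 were below it. Among all genes counted 53.5% were above and 46.5% below. Still at least 2-fold from P1 were 39 of the 80 (1.98% of all genes were as far above) and 53 of the 95 (3.29%). The P1 pool enters both ratios, so a P1 pool that stood apart would enter both counts. The median log2 ratio of P7 over P1 was 0.90 for the higher and -1.11 for the lower genes, beside 1.23 and -1.34 for P4 over P1.

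E18 and P7 took no part in choosing the genes, and between them fewer genes kept the direction. Of the 80 higher genes 58 were above E18 at P7 (51.1% of all genes were), and 21 were at least 2-fold above (4.61%). Of the 95 lower genes 57 were below E18 at P7 (48.8%), and 17 were at least 2-fold below (3.05%). Medians were 0.36 for the higher and -0.21 for the lower genes, against 0.01 for all genes counted. The higher genes with the largest P7 over E18 log2 ratios that the text names were Hpgd (4.18), Tnc (2.54), Ccnd2 (2.45), Tgfb2 (2.20) and Htra1 (2.05). The lower ones were Dlk1 (-3.98), Hba-a1 (-3.45, of uncertain direction between probe sets), Pon1 (-2.55) and Gpx3 (-2.29). The P7 signals of Hba-a1 and Pon1 lay under the floor, so their values are bounds.

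**Figure D5:**
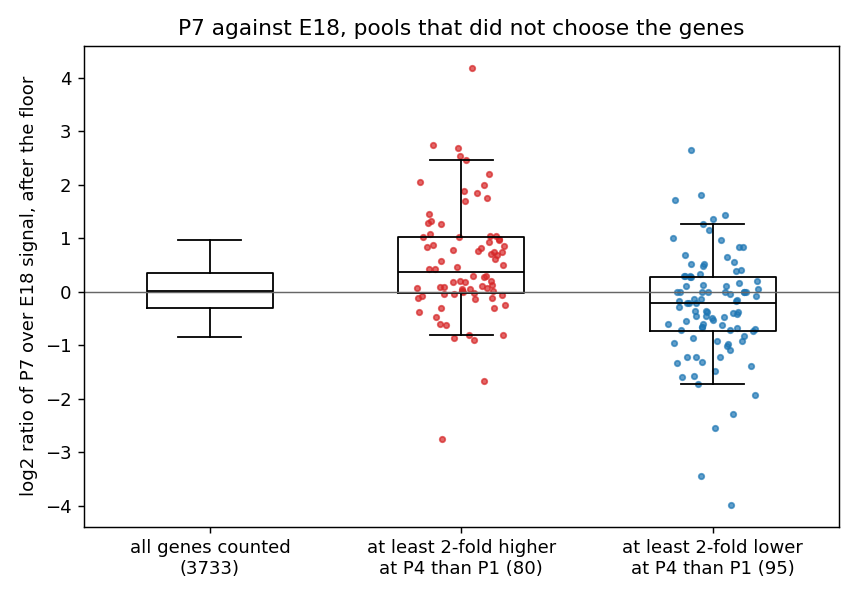
log2 ratio of the P7 over the E18 signal, after the floor, for all 3733 genes counted, the 80 higher and the 95 lower genes; boxes span the quartiles with the median as a line, whiskers the 5th to 95th percentiles, and each coloured point is 1 gene. The median is 0.36 for the higher genes, -0.21 for the lower and 0.01 for all, and both groups reach to either side of 0.

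Of the 95 lower genes 42 were at least 2-fold higher at P1 than at E18 (5.09% of all genes counted were), and 37 had their highest signal of all ages at P1 (6.91%). Of the 80 higher genes 16 were at least 2-fold lower at P1 than at E18 (1.98%), and 18 had their lowest signal at P1 (6.88%). A rise or dip at P1 was thus part of many of the differences, which the choice of genes by their P1 signal favours. At P4 37 of the 80 were also at least 2-fold above E18 (4.93%) and 34 of the 95 at least 2-fold below (2.65%).

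The 7 higher genes that did not keep their direction at P7 were Dcun1d2, Elovl3, Esr1, Samsn1, Spink1, Stx2 and Tfap2c. The 7 lower ones were Axin1, Ccdc130, Ddit3, Foxn1, Gcnt1, Rpl41 and Scgb1a1. They are named as exceptions after their values were seen. Esr1, the oestrogen receptor alpha, had 74.3 at P1, 204 at P4, 72.9 at P7 and 221 at P10. Ddit3, a stress-induced transcription factor, had 482, 159, 498 and 463. Foxn1, the transcription factor of thymic epithelium and hair, had 242, 91.0, 250 and 334, a course unlike that of the thymocyte genes above, which stayed low at P7. In Esr1 the P4 and P10 signals were alike, and in Ddit3 P4 alone was low.

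An E12, E14 or E16 signal above that of P4 was found for 40 of the 80 higher genes and 63 of the 95 lower ones, and for 61.0% of all genes counted. Of the 80, 24 were at least 2-fold lower at E18 than at E16 (5.81% of all genes were). Of the 95 lower genes 26 were at least 2-fold higher at E18 than at E16 (8.14%). From P7 to P14 the direction turned back at least 2-fold in 22 of the 80 (2.63% of all genes went down as far) and in 17 of the 95 (2.87% went up as far). In Vcan, for example, 441 at E16, 143 at E18, 657 at P4 and 124 at P14 followed each other, and in Inmt 43.8, 1247, 362 and 6046.

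The same pools read by other probe sets gave the only technical repeat. For 24 of the 175 genes another probe set was counted, and 18 of these had the same direction (75%), 4 of them at least 2-fold: Top2a, Mdk, H2-T3 and Gpx3. Across chips 8 of 11 had the same direction. Over all genes with such a pair, whatever their ratio, 456 of 668 other probe sets (68.3%) had the same direction. The opposite direction was found for Psma4, Gatad2a, Lgals3, Ahcy, Scgb1a1 and Hba-a1, whose ratios are therefore uncertain. Beyond the named genes, 101 probe sets without a single gene symbol were at least 2-fold higher and 103 lower.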

How the data were processed

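The authors deposited 1 linear signal intensity per probe set and array, scaled so that the mean after trimming 2% at each end was 500.1 to 500.2 on chip A and 498.3 to 498.9 on chip B, as computed from the deposited values. Per the labels' protocols, 10 µg of total RNA from each pool was made into biotin-labelled cRNA. The method that turned probe cells into a signal is not given here by any label or file header. Intensities were used as deposited, each chip on its own scale, with Python 3.11.15, numpy 2.4.6, pandas 2.3.3 and matplotlib 3.10.9. The gene counts leave out 55 controls per chip and, on each, 1 probe set that lacked values. Names came from the platform annotation: 5535 probe sets on chip A and 1986 on chip B had 1 symbol, 197 and 25 had several, and 792 and 4511 had none. The floor, filter and limit are given above. The number of arrays, 1 per age and chip, limits the precision. Genes and lists were counted by fold with no test, after the counting was tested on simulated data. Named were the 15 largest and 15 smallest ratios, up to 6 members of each of 38 lists past 2-fold or else its 2 largest ratios, and 2 genes on each side of each limit. The genes compared and the lists were chosen with earlier results of these data known. Alternatives were other floors, filters, scalings, limits, ages and ways of choosing probe sets.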

Additional observations from a re-analysis of the deposited data

How the results depend on the processing

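No paired analysis was possible because each age is 1 pool and the replicate number carries no pairing. The counts of 80 higher and 95 lower genes stayed within 1.5 times under a floor at the 40th percentile and with 16 added in place of the floor. They also did so under quantile normalization, scaling to the same median and the median over a gene's probe sets. Among alternatives chosen after seeing the data, so did leaving out the T cell and muscle lists. The same held without probe sets whose names end in f_at, i_at or r_at, while those ending in s_at were kept. Without the filter 137 genes were higher, and with the filter at the 75th percentile 35 were higher and 45 lower. At 3-fold 16 were higher and 39 lower. Counting every probe set gave 202 and 218, and comparing P4 with E18 in place of P1 gave 179 and 168, both chosen after seeing the data. The 73 higher and 88 lower genes that kept their direction at P7 became 58 and 57 against E18, and 47 and 50 when P10 was set against E18. Quantile normalization kept 69 of the 80 and 93 of the 95 past 2-fold. The median of the T cell list, -0.64, was 0.00 with the higher floor. With the median over probe sets, which takes in only genes with a counted probe set, it was -2.07, that of the liver plasma proteins went from -0.01 to -0.64, and Lgals3 was 0.22. Under the higher floor 20 of 99 named genes moved by more than 1.5-fold, as genes near the floor must. Signals near the floor limit the size of folds. Only 1 pool per age was measured, so differences between litters, dissections and arrays at P1 or P4 cannot be told apart from age.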
